A study of Rattus norvegicus with 12 samples.

Results

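The mitochondrially encoded subunits of respiratory complex I were followed in RNA from rat primary cortical neurons, in total cytosolic RNA and in ribosome-enriched pellets. The family was given as a list of 7 Ensembl gene identifiers, and 6 of them were found among the 25424 genes of the deposited table: Mt-nd1 (ENSRNOG00000030644), Mt-nd2 (ENSRNOG00000031033), Mt-nd3 (ENSRNOG00000033615), Mt-nd4 (ENSRNOG00000029707), Mt-nd4l (ENSRNOG00000031053) and Mt-nd5 (ENSRNOG00000029971). The remaining member, Mt-nd6, was not analysed here. The family was selected on values measured in these libraries, so the differences between pellet and total RNA are given as a description, and tests of the members bear on the comparison of Aβ with vehicle and on its interaction with the fraction. Cultures were prepared from Sprague-Dawley rat embryos at embryonic day 18 and kept for about 28 days in vitro. By the study's culture protocol, all cultures had d,l-amino-phosphonovalerate added to the medium early on, against excitotoxic death. They received for 24 h either 100 nM of a preparation of synthetic rat Aβ1-42, the amyloid peptide, or vehicle (the HEPES buffer of the peptide). All cultures, controls included, were exposed to cycloheximide before lysis, which holds cytosolic ribosomes on their mRNAs. The study describes its total RNA as coming from cytosolic extracts, and its methods do not say at which step it was taken. Centrifugation of cleared lysate over sucrose gave the ribosome-enriched pellet. There were 12 libraries, 3 in each of 4 groups (vehicle total, Aβ total, vehicle ribosome, Aβ ribosome), and they are named here by the number in their labels. The study speaks of biological replicates and of paired sequencing of the fractions, but the labels do not say which libraries came from the same culture.

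Complex I, or NADH dehydrogenase, is the entry enzyme of the respiratory chain: it passes electrons from NADH to ubiquinone and pumps protons across the inner mitochondrial membrane. Most of its subunits are encoded in the nucleus, but the ND subunits, which form the core of the membrane arm, are encoded by the mitochondrial genome. Mitochondrial DNA is transcribed into long polycistronic RNAs that are cut into mRNAs without introns, most of them polyadenylated, and these are translated inside the organelle by mitochondrial ribosomes, which cycloheximide does not block. ND2, ND4 and ND5 are the antiporter-like subunits that carry the proton channels, ND1 sits where the membrane arm meets the ubiquinone site, and ND3, ND4L and ND6 are small subunits lying between them. ND4L and ND4 have overlapping reading frames on a shared mRNA, and ND6 is encoded on the opposite strand from the other ND genes.

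The table gave FPKM (fragments of a gene over its transcript length and the mapped fragments of the library, a level that can be compared between genes), and the low values of each gene were whole multiples of a step, from which fragments, transcript lengths and depth were recovered. The libraries held 14.1 M to 20.0 M mapped fragments. The recovered lengths were 297 bases for Mt-nd4l, 348 for Mt-nd3, 955 for Mt-nd1, 1039 for Mt-nd2, 1378 for Mt-nd4 and 1830 for Mt-nd5, which is the order in which these reading frames are known to lengthen. The table pairs no identifier with a symbol, so the symbols are those of the list, this length order is the check made of them, and markers of neurons and glia were not examined. Depth was no limit for the members: each had between 3027 and 340741 fragments in every library, and the largest counting error, that of Mt-nd4l in its lowest library, was 1.82%. Libraries of a group differed from each other by more than counting noise. Reads shared with nuclear copies of mitochondrial DNA were not tested, and the strand setting of the counting is not given in the sources used here.

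The 6 mRNAs were among the most abundant in the cultures and made up a larger part of the pellets than of total RNA. Together they held 5.67 to 9.01% of the summed FPKM of the 6 pellet libraries and 2.38 to 2.92% of that of the 6 total libraries. As mapped fragments the ranges were 3.70 to 6.04% in the pellets and 1.20 to 1.55% in total RNA. Ranked by FPKM among all genes of a library, Mt-nd2 stood at place 6 to 8, Mt-nd4 at 6 to 10 and Mt-nd1 at 7 to 12. Mt-nd3 stood at place 9 to 15 and Mt-nd5 at 12 to 20, while Mt-nd4l, the lowest of the family, ranged from 13 to 66.

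**Figure D1:**
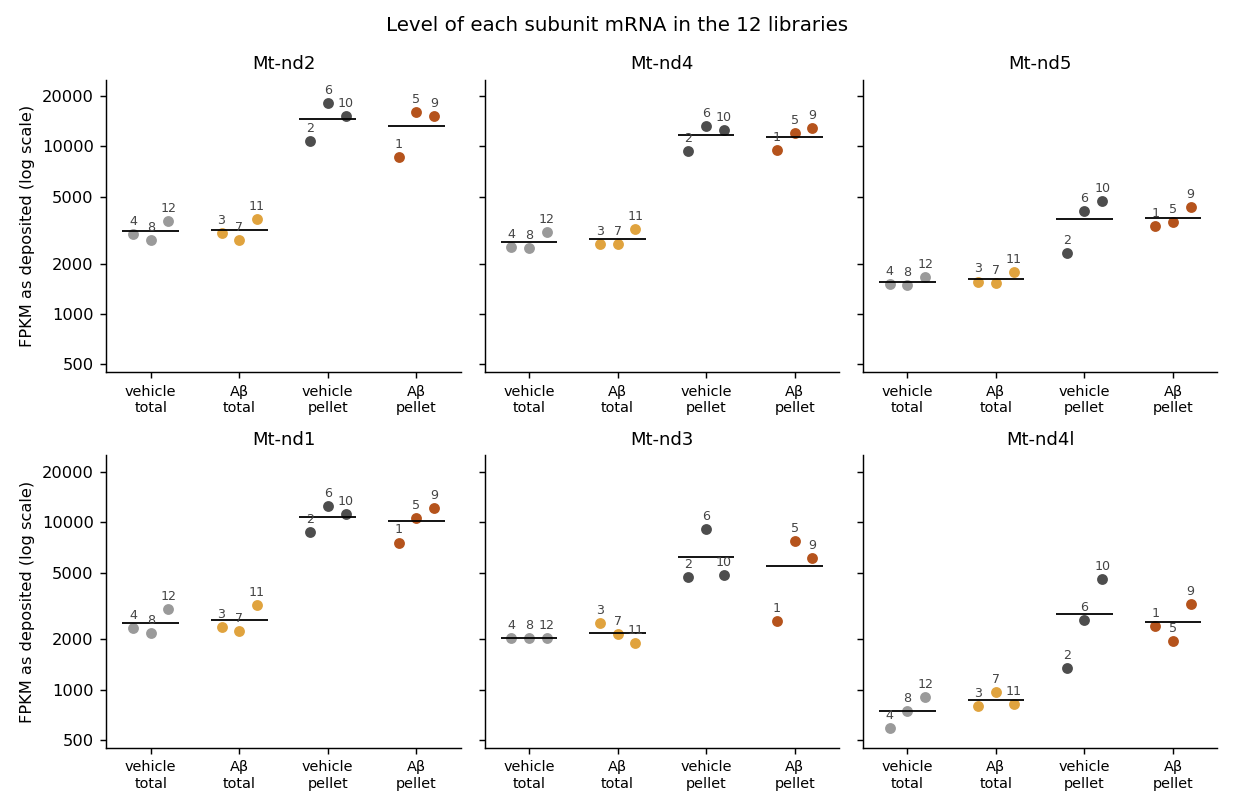
FPKM as deposited (log axis) of the 6 subunit mRNAs in each group. Points are single libraries with their numbers and bars are means of 3 libraries; the pellet libraries lie above the total libraries in every panel, most narrowly for Mt-nd3, where library 1 read 2557 and total library 3 read 2499.

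Among the antiporter-like subunits, Mt-nd2 read 10718, 18102 and 15144 FPKM in the vehicle pellets (libraries 2, 6 and 10, as for every member below) and 8623, 15943 and 15120 FPKM in the Aβ pellets (libraries 1, 5 and 9). In total RNA it read 3011, 2744 and 3587 FPKM with vehicle (libraries 4, 8 and 12) and 3031, 2774 and 3700 FPKM with Aβ (libraries 3, 7 and 11). The pellets were thus all above the total libraries, libraries 1 and 2 were the lowest pellets, libraries 11 and 12 were the highest total libraries, and the treatments overlapped in both fractions. Mt-nd4 read 9421, 13197 and 12456 FPKM in the vehicle pellets and 9531, 12015 and 12803 FPKM in the Aβ pellets. Its total values were 2521, 2480 and 3063 FPKM with vehicle and 2615, 2604 and 3203 FPKM with Aβ. Mt-nd4 showed the same low pair and the same high pair of libraries as Mt-nd2. Mt-nd5, which encodes the subunit at the far end of the membrane arm, read 2307, 4095 and 4714 FPKM in the vehicle pellets and 3350, 3533 and 4344 FPKM in the Aβ pellets. In total RNA it read 1508, 1479 and 1667 FPKM with vehicle and 1562, 1540 and 1781 FPKM with Aβ. Library 2 alone lay well below the other pellets for Mt-nd5, and it still exceeded every total library.

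Mt-nd1, the subunit at the ubiquinone site, read 8671, 12500 and 11189 FPKM in the vehicle pellets and 7555, 10610 and 12187 FPKM in the Aβ pellets. Its total values were 2340, 2182 and 3018 FPKM with vehicle and 2363, 2241 and 3218 FPKM with Aβ. It followed Mt-nd2 and Mt-nd4 in which libraries were low and high.

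The small subunits behaved less evenly. Mt-nd3 read 4707, 9143 and 4822 FPKM in the vehicle pellets and 2557, 7666 and 6135 FPKM in the Aβ pellets, a spread of 40.6% and 48.1% of the mean (coefficient of variation, n = 3 each). Its vehicle total values of 2027, 2024 and 2045 FPKM had a coefficient of variation of 0.567% as deposited and 4.75% after the scaling between libraries described below, and the Aβ total values were 2499, 2141 and 1899 FPKM. The pellets therefore varied far more than total RNA, and libraries 11 and 12, high for the larger subunits, were not high for Mt-nd3. Mt-nd4l read 1339, 2599 and 4579 FPKM in the vehicle pellets and 2412, 1950 and 3262 FPKM in the Aβ pellets. In total RNA it read 586, 746 and 908 FPKM with vehicle and 804, 971 and 816 FPKM with Aβ. Its highest pellet was library 10 and its lowest library 2, both of them vehicle, so the vehicle pellets enclosed the Aβ pellets.

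By mean FPKM the order in both fractions was Mt-nd2, Mt-nd4, Mt-nd1, Mt-nd3, Mt-nd5 and Mt-nd4l. Within libraries Mt-nd2 exceeded Mt-nd4 in 6 of 6 total and 5 of 6 pellet libraries, library 1 being the exception. Mt-nd4 exceeded Mt-nd1 in 6 of 6 pellet and 5 of 6 total libraries, the exception being library 11. Over libraries the ranges of these neighbours overlapped in both fractions. Their levels moved together across libraries, so that overlap does not bear on their order within a library. Within libraries Mt-nd2 over Mt-nd4 was 1.07 to 1.19 in total RNA and 0.90 to 1.37 in the pellets. Mt-nd1 over Mt-nd4 was 0.79 to 0.95 in the pellets and 0.86 to 1.005 in total RNA. In total RNA the ranges of Mt-nd3 and Mt-nd5 and those of Mt-nd5 and Mt-nd4l did not overlap, whereas in the pellets they did.

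For differences between libraries, each library's FPKM were scaled by a size factor (the median of its ratios to the mean library) and taken as log2(scaled FPKM + 1). With vehicle, Mt-nd2 was higher in the pellet by 2.55 ± 0.31 on the log2 scale (SE, 3 libraries against 3), a 5.87-fold difference, Mt-nd4 by 2.46 ± 0.27 (5.49-fold) and Mt-nd1 by 2.44 ± 0.28 (5.44-fold). By value the small subunits had smaller differences, 2.12 ± 0.42 (4.34-fold) for Mt-nd4l and 1.89 ± 0.33 (3.70-fold) for Mt-nd3, and Mt-nd5 had the smallest, 1.54 ± 0.29 (2.90-fold). With Aβ the differences were 2.29 ± 0.35 for Mt-nd2 (4.88-fold), 2.29 ± 0.27 for Mt-nd4 (4.89-fold) and 2.21 ± 0.31 for Mt-nd1 (4.63-fold). Mt-nd4l differed by 1.795 ± 0.22 (3.47-fold), Mt-nd5 by 1.46 ± 0.21 (2.75-fold) and Mt-nd3 by 1.45 ± 0.43 (2.74-fold). By value Mt-nd1, Mt-nd2 and Mt-nd4 thus had the largest differences in both treatments. With vehicle their distance from Mt-nd4l depended on pellet library 2. Without that library Mt-nd4l differed by 2.57, beside 2.59 for Mt-nd1, 2.60 for Mt-nd4 and 2.76 for Mt-nd2. The median over the 6 members was 2.28 with vehicle and 2.004 with Aβ, beside medians over the 12150 genes tested of 0.0003 and 0.0020.

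In all 6 members the 6 pellet libraries lay above the 6 total libraries, as they did for 2324 of the 12150 genes (19.1%). By limma, 3925 genes (32.3%) passed an adjusted p of 0.05 between the fractions with vehicle, 1932 of them higher in the pellet (15.9% of the genes tested), and 4993 (41.1%) passed with Aβ, 2385 of them higher in the pellet (19.6%). All 6 members were among the higher genes in both treatments, from which nothing is read, since the family was chosen with these values known.

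The size of the difference depended on the scaling. With FPKM as deposited, the median gene moved to -0.30 with vehicle and -0.23 with Aβ, and the members' differences ranged from 1.19 to 2.21 and from 1.19 to 2.02 on the log2 scale. With every library brought to the same sum of FPKM over the genes outside the family, the median gene moved to -0.58 and -0.45, and the members ranged from 0.87 (Mt-nd5) to 1.88 (Mt-nd2) with vehicle and from 0.93 to 1.76 with Aβ. Under that scaling the Mt-nd3 libraries of the fractions overlapped, with 2492 in pellet library 1 and 2753 in total library 3, and the other 5 members still did not overlap. Relative to the median gene the members ranged from 1.54 to 2.55 with the main scaling, 1.49 to 2.51 as deposited and 1.44 to 2.46 with equal sums in vehicle neurons. All 6 remained higher in the pellet under each of these scalings.

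**Figure D2:**
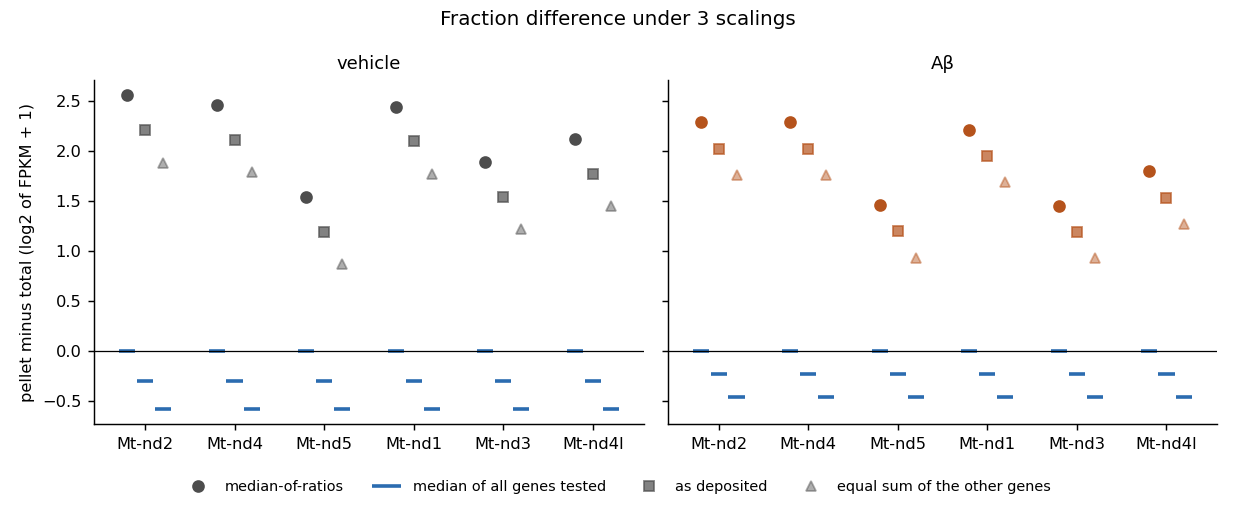
Pellet minus total difference of each member, in log2 units, in vehicle (left) and Aβ (right) neurons under 3 scalings between libraries (circle, square, triangle), with the median of all 12150 genes under the same scaling as a blue bar. The members stay 1.44 to 2.55 above the median gene in vehicle neurons whichever scaling is used, with Mt-nd5 lowest.

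The composition of the family also differed between the fractions, in a measure that no scaling between libraries can change: the share of a member in the summed FPKM of the 6. Mt-nd5 made up 12.3% ± 0.383 of the sum in total RNA (SD, n = 6) and 7.79% ± 1.40 in the pellets. The ranges, 11.7 to 12.7% and 6.21 to 9.85%, did not overlap. Mt-nd3 made up 16.4% ± 2.34 in total RNA and 11.8% ± 3.10 in the pellets, with overlapping ranges of 13.0 to 19.4% and 7.51 to 15.3%. Mt-nd2 made up 24.2% ± 1.12 in total RNA and 28.7% ± 1.95 in the pellets, and the ranges did not overlap, by a narrow margin, since pellet library 1 held 25.34% and total library 11 held 25.32%. Mt-nd4 made up 21.2% ± 0.528 in total RNA (20.3 to 21.9%) and 24.3% ± 2.08 in the pellets (22.1 to 28.01%), without overlap. Mt-nd1, with 19.7% ± 1.56 and 21.8% ± 1.09, and Mt-nd4l, with 6.23% ± 1.01 and 5.59% ± 2.03, overlapped. The shares are parts of the same sum, so a higher share of some members goes with a lower share of others. These differences are therefore not separate results. How often shares within other sets of genes separate between the fractions was not counted.

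**Figure D3:**
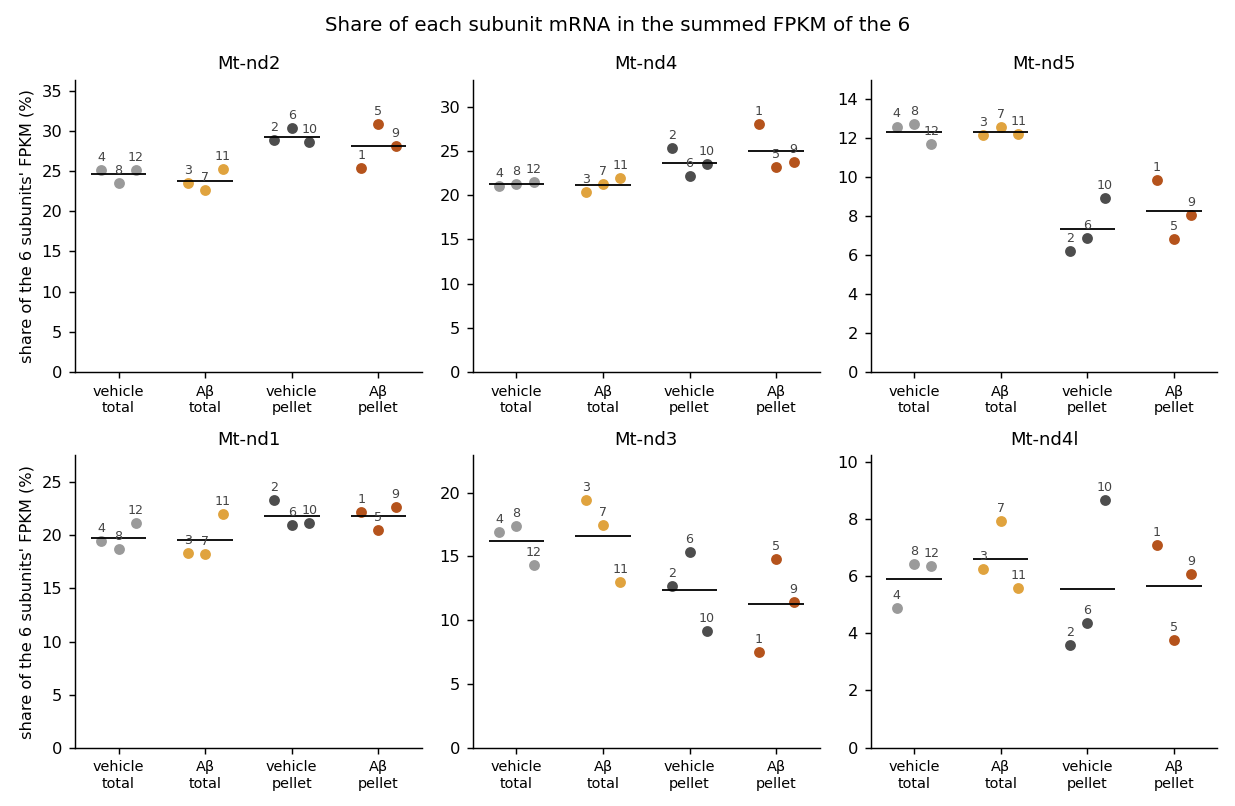
Share of each member in the summed FPKM of the 6 (percent, axes from 0) by group. Points are single libraries with their numbers and bars are means of 3; Mt-nd5 lies between 11.7 and 12.7% in total RNA and between 6.21 and 9.85% in the pellets, while Mt-nd4l overlaps between fractions.

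Ratios of members within a library differed between the fractions for some pairs and overlapped for others. The ratio of Mt-nd5 to Mt-nd4, both antiporter-like, was 0.598, 0.596 and 0.544 in the vehicle total libraries and 0.597, 0.591 and 0.556 in the Aβ total libraries. In the pellets it was 0.245, 0.310 and 0.378 with vehicle and 0.351, 0.294 and 0.339 with Aβ. All 6 pellets lay below all 6 total libraries, and in total RNA the ratio was steady at 0.581 ± 0.024 (SD, n = 6). The ratio of Mt-nd3 to Mt-nd2 was 0.682 ± 0.121 in total RNA (0.513 to 0.825) and 0.408 ± 0.085 in the pellets (0.297 to 0.505), also without overlap. Mt-nd1 over Mt-nd4 was 0.927 ± 0.058 in total RNA and 0.899 ± 0.059 in the pellets, with overlapping ranges. Mt-nd2 over Mt-nd4 overlapped as well, at 1.142 ± 0.047 and 1.190 ± 0.165. How often other pairs of genes separate between the fractions was not counted. Mt-nd4l and Mt-nd4, which share an mRNA, did not have equal FPKM: their ratio was 0.294 ± 0.049 in total RNA (0.233 to 0.373) and 0.229 ± 0.082 in the pellets (0.142 to 0.368). The authors counted in HTSeq's union mode, which sets aside a fragment that overlaps more than a single gene, so fragments crossing from Mt-nd4l into Mt-nd4 were not counted for either, and the part of this in the ratio was not tested.

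The members did not all move together across the libraries of a fraction. In total RNA, the log2 values of Mt-nd1, Mt-nd2, Mt-nd4 and Mt-nd5 moved together, with pairwise Pearson r of 0.96 to 0.99 over the 6 libraries, while r of Mt-nd3 with these 4 was -0.12 to -0.05. In the pellets, Mt-nd1, Mt-nd2 and Mt-nd4 had r of 0.97 to 0.98 with each other and 0.89 to 0.95 with Mt-nd3. There Mt-nd5, the longest, and Mt-nd4l, the shortest, had r = 0.90 with each other, Mt-nd5 had r of 0.69 to 0.80 with Mt-nd1, Mt-nd2 and Mt-nd4, and the small Mt-nd3 and Mt-nd4l had r = 0.10. These are descriptions over 6 libraries that differ in treatment and depth, and all members of a library share its scaling.

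The SD of Mt-nd3 over the 6 pellets was 0.72 on the log2 scale, above that of 96.3% of the genes tested, whose median was 0.27. In total RNA its SD was 0.13, near the median of 0.12. Mt-nd4l had SDs of 0.58 and 0.28, and Mt-nd4 the smallest in the pellets, 0.26. Pellet library 1 deviated from the pellet mean by -1.19 on the log2 scale for Mt-nd3, and by a median of -0.205 for the 160 other genes of at least 300 and under 400 bases. Pellet library 2 deviated by -0.86 for Mt-nd4l, and by a median of -0.213 for the 258 other genes under 300 bases. In library 10, the deviation of Mt-nd4l was 0.80 and the median of the same genes 0.126. The deviation of Mt-nd3 had the same sign as the median of its length class in 5 of 6 pellet and 4 of 6 total libraries, and that of Mt-nd4l in 5 of 6 pellet and 1 of 6 total libraries. Among the pellets the exceptions were library 2 for Mt-nd3 (-0.16 against 0.0098) and library 5 for Mt-nd4l (-0.34 against 0.074). The part of transcript length in the members' values was not tested.

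**Figure D4:**
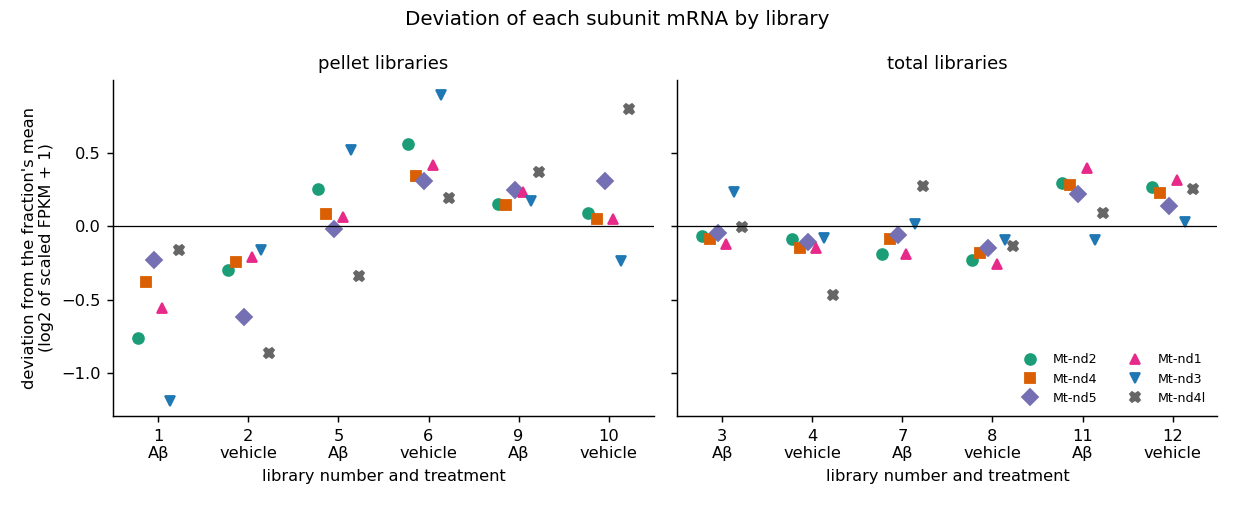
Deviation of each member from its mean over the 6 libraries of the fraction, on the log2 scale of scaled FPKM, in the pellet (left) and total (right) libraries. Mt-nd3 is at -1.19 in pellet library 1 and Mt-nd4l at -0.86 in library 2, while Mt-nd1, Mt-nd2, Mt-nd4 and Mt-nd5 are all high in total libraries 11 and 12.

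Whether Aβ changed the level of these mRNAs was tested in a fit of all 12 libraries. None of the 12150 genes passed in the pellets (0%) or in total RNA (0%) by limma, with 178 and 20 genes at an unadjusted p under 0.05, and none passed with limma's voom on the recovered fragments. Both counts lie below what that threshold gives by chance, so they are not read as absence of an effect. Fitted within each fraction with adjacent sample numbers as a block, an assumption, the counts were 160 and 769, and none passed. None of the 6 members passed. In the pellets Mt-nd3 differed by -0.33 between Aβ and vehicle on the log2 scale (95% interval -1.22 to 0.56), Mt-nd2 by -0.24 (-0.94 to 0.47) and Mt-nd1 by -0.17 (-0.80 to 0.45). Mt-nd4 differed by -0.10 (-0.63 to 0.44), Mt-nd4l by -0.09 (-0.87 to 0.70) and Mt-nd5 by 0.0001 (-0.55 to 0.55). Without Aβ pellet library 1, 5 of the 6 values were above 0. The adjusted p was 0.9997 for Mt-nd1, Mt-nd2, Mt-nd3, Mt-nd4 and Mt-nd4l. For Mt-nd5 the adjusted p was 1. With 3 libraries against 3 the intervals are wide, widest for Mt-nd3, and do not show that the levels were alike. They take the spread from both fractions, and each member varied more over the pellets than over total RNA (for Mt-nd3, SD 0.72 against 0.13). The spread of the pellets alone is thus understated. Fitted on the 6 pellets alone, 46 genes had an unadjusted p under 0.05 by limma and none passed.

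In total RNA all 6 values were above 0 with all libraries, but 4 were below 0 without Aβ library 11 and 3 without vehicle library 8. They were 0.24 for Mt-nd4l (-0.55 to 1.02), 0.10 for Mt-nd3 (-0.79 to 0.99), 0.08 for Mt-nd5 (-0.47 to 0.63), 0.07 for Mt-nd4 (-0.46 to 0.61), 0.06 for Mt-nd1 (-0.57 to 0.68) and 0.03 for Mt-nd2 (-0.67 to 0.74). None was separated from 0 (limma adjusted p = 1 in each). These intervals take the spread from both fractions. Fitted on the 6 total libraries alone they were narrower, from -0.22 to 0.37 for Mt-nd5, -0.18 to 0.38 for Mt-nd3 and -0.43 to 0.54 for Mt-nd1. With runs of adjacent sample numbers taken as pairs as well, an assumption the labels do not state, they narrowed to -0.01 to 0.17 for Mt-nd5, -0.08 to 0.29 for Mt-nd3 and -0.04 to 0.16 for Mt-nd1, and no member passed (lowest limma adjusted p 0.786). In a bulk culture, fewer cells of a type and less RNA per cell cannot be told apart.

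**Figure D5:**
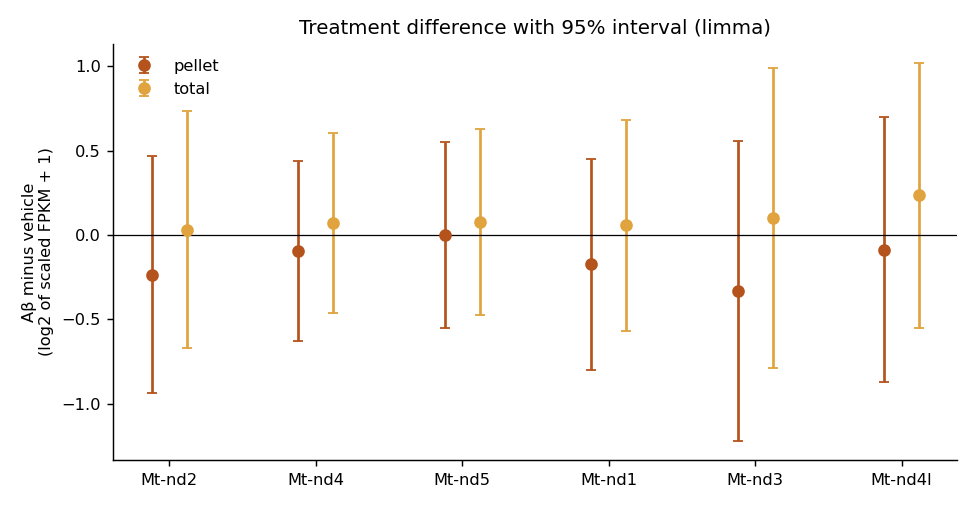
Aβ minus vehicle difference of each member on the log2 scale of scaled FPKM, in the pellets and in total RNA, with the 95% interval of the limma fit over 12 libraries. Every interval includes 0, and the values run from -0.33 (Mt-nd3, pellet) to 0.24 (Mt-nd4l, total).

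The difference between pellet and total RNA was also compared between the treatments, as the interaction of treatment and fraction. It was lower with Aβ by value in all 6 members, by -0.43 for Mt-nd3 (95% interval -1.69 to 0.83), -0.32 for Mt-nd4l (-1.43 to 0.79), -0.27 for Mt-nd2 (-1.26 to 0.73), -0.23 for Mt-nd1 (-1.12 to 0.65), -0.17 for Mt-nd4 (-0.93 to 0.59) and -0.08 for Mt-nd5 (-0.86 to 0.70). Without Aβ pellet library 1, 4 of the 6 values were above 0 and their median moved from -0.25 to 0.02. Without vehicle pellet library 10, 2 values were above 0. Leaving out vehicle pellet library 6 or Aβ total library 11 put 1 value above 0. The shared direction thus depended on several single libraries. No member passed (limma adjusted p of 0.999996 in each), nor did any of the 12150 genes (0%), with 84 at an unadjusted p under 0.05. By voom none passed either, with 64 genes at an unadjusted p under 0.05. The value for Mt-nd5 turned to 0.0014 with FPKM as deposited and to 0.07 with equal sums, so its direction depends on the scaling.

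Outside the family, 5 genes were ranked as most like the mean log2 value of the 6 members over the 12 libraries. The leading gene, ENSRNOG00000034234, had a recovered length of 1545 bases and a mean of 33805 FPKM in the pellets and 12414 FPKM in total RNA, and within fractions its r with the members' mean was 0.99 over the 6 pellets and 0.91 over the 6 total libraries. ENSRNOG00000031766, of 1143 bases, had means of 17442 and 5943 FPKM and r of 0.96 in each fraction. The remaining 3 genes, of 681 to 784 bases, had r of 0.88 to 0.90 in the pellets and 0.84 to 0.94 in total RNA. Their means were 22503 to 30637 FPKM in the pellets and 5355 to 8254 FPKM in total RNA. All 5 genes were higher in the pellets by mean, which the ranking favours because it spans both fractions, so nothing is read from it. Over all genes tested, the 6 pellet libraries lay above the 6 total libraries for 2324 of 12150 (19.1%). Being higher in the pellets was thus not particular to the family.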

How the data were processed

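The authors trimmed paired-end reads, aligned them with TopHat2 2.0.12 on a Bowtie2 2.2.3 index, counted fragments with HTSeq 0.6.1 in union mode and deposited FPKM per gene and library; build, annotation and strand setting are not given in the sources used here. Their DESeq test on counts was not used. Libraries were poly(A) selected, 3 of them, not named, with another bead capture. Of 25425 rows, 1 incomplete row was left out. It was the last row and was cut off, so further genes may be missing. Ranks, sums and shares of genes refer to the rows present. Genes averaging 1 FPKM or more (12150) were tested, and fragments were recovered for 12149 of these, within 0.01 of a whole number. After median-of-ratios scaling, log2(scaled FPKM + 1) was fitted with limma 3.58.1 (R 4.3.3; eBayes with trend, Benjamini-Hochberg, threshold 0.05): 6 libraries for each fraction comparison, 12 for treatment and interaction. The study calls its replicates biological and the sequencing of the fractions paired; the labels do not say which libraries form a pair. The code was tested on simulated data. The members, gene lists and tests were chosen with earlier results of these data known. All members are named, and the genes most like them were ranked by Pearson r over 12 libraries. No table used here pairs the identifiers with symbols (0 of 23702 Ensembl identifiers matched the RefSeq gene table of GRCr8), so the lists of nuclear complex I subunits, assembly factors and cell type markers were not applied, and no sequence is shown. With 3 fragments, the limit that a count of 0 allows, a transcript of 2000 bases would read 0.0749 to 0.106 FPKM, counting error only.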

Additional observations from a re-analysis of the deposited data

How the results depend on the processing

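The alternatives were other scalings (none, the 75th percentile, an equal sum of FPKM without the members), other filters (none, or 5 FPKM), a pseudocount of 0.1, leaving out a library, a replicate block made of runs of 4 adjacent sample numbers, another set of libraries in the fit, and voom. Taking a run as a pair is an assumption. A block of runs within each fraction, in the fit of 12 libraries or of the 6 of a fraction, was chosen after seeing the data: same-run libraries of a fraction had correlated deviations (mean r across genes 0.541 in the pellets and 0.489 in total RNA), but same-run libraries of different fractions did not (-0.072). None of these blocks called a gene for treatment or interaction. With the block of runs, 3356 genes differed between fractions with vehicle and 4293 with Aβ.

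The counts of 3925 (vehicle) and 4993 (Aβ) genes became 6708 with equal sums in vehicle, and 1987 and 2940 without a filter. Leaving out a library gave 1712 to 5253 and 3025 to 5816; the counts below the main ones by over 1.5 times were 2562, 1712, 1847 and 1867 without vehicle libraries 6, 4, 8 and 12, and 3025, 3140 and 3189 without Aβ libraries 3, 7 and 11. Equal sums raised the share of lower calls: 397 higher and 6311 lower with vehicle, 446 and 5865 with Aβ; as deposited, 918 and 3644, and 1138 and 4105. Without a filter 4 genes were called for treatment in total RNA and 4 for the interaction. Leaving out vehicle total library 8 gave 1 each, against 0 otherwise, and no member was called for treatment or interaction under any alternative run (lowest adjusted p 0.571). The median of the members was 1.61 (vehicle) and 1.48 (Aβ) with equal sums, a scaling under which the median gene moved to -0.58 and -0.45. With a library left out the median of the members ran from 2.16 to 2.58 and from 1.82 to 2.21.

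Small treatment values changed sign. With equal sums Mt-nd4 became 0.0248 and Mt-nd4l 0.033 in the pellets, and the interaction of Mt-nd5 became 0.0669 (0.0014 as deposited). With a library left out, pellet values ran from -0.33 to 0.0621 (Mt-nd1), -0.44 to 0.0859 (Mt-nd2), -0.68 to 0.18 (Mt-nd3), -0.24 to 0.0698 (Mt-nd4), -0.54 to 0.29 (Mt-nd4l) and -0.31 to 0.16 (Mt-nd5). Total values ran from -0.13 to 0.23 (Mt-nd1), -0.11 to 0.17 (Mt-nd2), -0.0504 to 0.20 (Mt-nd4) and -0.0135 to 0.16 (Mt-nd5). Interactions ran from -0.40 to 0.0042 (Mt-nd1), -0.48 to 0.0531 (Mt-nd2), -0.78 to 0.0802 (Mt-nd3), -0.78 to 0.0568 (Mt-nd4l) and -0.39 to 0.0785 (Mt-nd5). In all, 371 member values for treatment and interaction kept their sign and 31 did not, the cause of which was not tested. Many of the 371 could not change, since other filters, blocks and sets of libraries in the fit left the value as it was. For treatment within a fraction, so did leaving out a library of the other fraction. The tally is therefore no measure of how stable the signs were. Each of the 6 members was higher in the pellet under every alternative run.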

Other observations

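If each run of 4 consecutive sample numbers is taken as a set, an assumption, the Aβ total library exceeded its vehicle partner in 3 of 3 runs for Mt-nd1 (ratios of scaled FPKM 1.02 to 1.06), Mt-nd2 (1.01 to 1.03), Mt-nd4 (1.04 to 1.07) and Mt-nd5 (1.04 to 1.06), and in 2 of 3 for Mt-nd3 and Mt-nd4l. Mt-nd1, Mt-nd2, Mt-nd4 and Mt-nd5 moved together over the total libraries (pairwise r of 0.96 to 0.99), so their runs are not separate observations. The share of all genes higher with Aβ in 3 of 3 runs was not computed. In the pellets Aβ was higher in 1 of 3 runs for each of the 6 members. Of the 6 members, 2, 0 and 4 were higher with Aβ in the pellets of the runs starting at libraries 1, 5 and 9, and 6, 6 and 4 in total RNA. With runs as a block within each fraction, none of these differences passed (limma adjusted p of at least 0.696, or 0.786 in total RNA fitted on its own 6 libraries; the lowest of a member under any alternative was 0.571).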
